A study of Mus musculus with 7 samples.

Results

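The outer segment of a photoreceptor is a modified cilium packed with membrane discs, and 10 genes that build, shape or supply these discs were followed in SCA7 knock-in retina. They were chosen by symbol, as genes of the disc rim, of disc formation and of the axoneme, and all 10 were found among the 52550 genes counted and passed the expression filter that left 20128 genes for testing. *Prph2* and *Rom1* encode the tetraspanins of the disc rim. *Prom1*, *Cdhr1*, *Fscn2* and *Prcd* encode proteins of nascent discs or of the disc membrane, and *Rp1* and *Rp1l1* encode microtubule-associated proteins of the axoneme. *Tulp1* and *Reep6* encode proteins that are known mainly from the transport of outer segment cargo, so that the name of the group is met by them only in a wide sense.

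Total RNA was sequenced from the retinas of mice 12.5 weeks old on the C57BL/6J strain, 4 WT and 3 homozygous SCA7 knock-in mice (SCA7 140Q/140Q), with 2 retinas per mouse and 1 library for each mouse. The knock-in places a long CAG repeat in the coding sequence of the mouse *Atxn7* gene, which stays under its own promoter and is therefore not limited to photoreceptors. A count over the whole *Atxn7* gene cannot check the repeat, and its level was 33.7 to 43.7 CPM in WT and 34.2 to 39.9 CPM in SCA7 (log2 fold change -0.06, adjusted p = 0.64 by edgeR).

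Discs are formed at the base of the outer segment as evaginations of the ciliary membrane, are flattened and, in rods, sealed, and are moved towards the tip as new ones follow. The old discs at the tip are shed and taken up by the pigment epithelium, so that the structure has to be rebuilt continually. Without peripherin-2, the product of *Prph2*, no outer segment is formed, and mutations in most of the genes described here cause retinal degeneration in humans.

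To show the DNA next to the values, the promoter windows of 4 of the genes are given, from 250 bases before to 50 bases after the RefSeq transcription start (GRCm38.p6, 5′ to 3′ on the strand of the gene). *Prph2* and *Rom1* are shown as the rim pair with a like decrease, *Prcd* as another strongly reduced gene, and *Cdhr1* as a gene that was reduced little. Capitals mark TAATC on either strand (with a further C where it reads TAATCC), the core of the site bound by CRX, the homeodomain factor of photoreceptors; on the strand printed it then reads TAATC or GATTA.
Prph2: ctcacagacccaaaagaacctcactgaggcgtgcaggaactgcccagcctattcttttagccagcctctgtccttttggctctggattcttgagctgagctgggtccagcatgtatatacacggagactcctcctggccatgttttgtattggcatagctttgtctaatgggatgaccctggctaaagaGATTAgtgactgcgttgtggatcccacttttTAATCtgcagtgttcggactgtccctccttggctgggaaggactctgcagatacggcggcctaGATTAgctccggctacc
Rom1: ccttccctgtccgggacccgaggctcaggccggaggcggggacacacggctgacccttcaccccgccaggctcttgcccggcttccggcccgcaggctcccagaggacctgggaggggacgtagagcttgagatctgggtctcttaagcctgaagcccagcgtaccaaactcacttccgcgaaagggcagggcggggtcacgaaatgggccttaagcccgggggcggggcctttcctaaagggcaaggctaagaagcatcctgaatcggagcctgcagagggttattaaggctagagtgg
Prcd: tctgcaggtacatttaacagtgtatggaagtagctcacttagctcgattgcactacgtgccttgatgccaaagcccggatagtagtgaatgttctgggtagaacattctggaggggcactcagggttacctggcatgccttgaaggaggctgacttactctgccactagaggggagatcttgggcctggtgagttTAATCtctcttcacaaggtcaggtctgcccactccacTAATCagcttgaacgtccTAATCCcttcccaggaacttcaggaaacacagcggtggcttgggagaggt
Cdhr1: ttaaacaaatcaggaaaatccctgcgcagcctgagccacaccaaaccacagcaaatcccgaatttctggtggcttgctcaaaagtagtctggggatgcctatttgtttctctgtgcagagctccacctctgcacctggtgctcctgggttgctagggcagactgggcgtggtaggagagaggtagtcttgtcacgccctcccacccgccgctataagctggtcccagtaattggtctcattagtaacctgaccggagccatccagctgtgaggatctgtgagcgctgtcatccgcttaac

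The *Prph2* window (chr17:46910228-46910527, plus strand) held TAATC 3 times, and so did the *Prcd* window (chr11:116656858-116657157, plus strand). None was found in the windows of *Rom1* (chr19:8929307-8929606, minus strand) and *Cdhr1* (chr14:37098298-37098597, minus strand). RefSeq windows were matched for 7 of the 10 genes, 8 windows in all, since *Prom1* has 2. TAATC was present in 4 of these 8 windows, those of *Prph2*, *Prcd*, *Tulp1* and the second of *Prom1*, while 22.0% of 32851 promoter windows of the same length held it. The longer TAATCC, which contains TAATC, occurred only in the *Prcd* window among these 8 (7.06% of all windows), and TGCTGA, part of the element bound by factors of the MAF family such as NRL, in none of them (19.5% of all windows). A match is a description of the sequence only, and the letters were not tested against the change in mRNA level.

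The mRNA level of all 10 disc structure genes was lower in SCA7 retina than in WT retina. In each of the 10, every SCA7 library lay below every WT library, an order that 18.3% of all genes tested showed. With library totals in place of TMM scaling, the log2 fold change of all 10 stayed below 0, but the groups overlapped in 3 of them, *Prom1*, *Cdhr1* and *Rp1l1*. With TMM scaling the decrease ran from 16.5% for *Prom1* to 72.6% for *Reep6*. With a limit of 0.7 on the FC (SCA7/WT) and of 0.05 on the adjusted p of edgeR, 7 of the 10 were downregulated, namely *Reep6*, *Prph2*, *Rom1*, *Prcd*, *Fscn2*, *Rp1* and *Tulp1*, against 7.91% of all genes tested, a description only, because the genes were not chosen blind to these data. None of the 10 was upregulated, against 7.47% of all genes (the limit on the FC being 1.3), and none had every SCA7 library above every WT library, against 19.3%. The DESeq2 Wald test also gave 7 downregulated and 0 upregulated among the 10 (6.73% and 7.19% of the genes it tested), and so did limma-voom (7.68% and 7.59%). The remaining 3, *Rp1l1*, *Cdhr1* and *Prom1*, were lower with an adjusted p under 0.05 but within the FC limit, and without that limit 14.2% of all genes tested were lower. For 2 of these 3 the adjusted p depended on single libraries. By edgeR it was 0.051, 0.054 and 0.077 for *Prom1* without WT replicate 2, SCA7 replicate 2 and SCA7 replicate 3, and 0.057, 0.101 and 0.058 for *Cdhr1* without WT replicate 2, SCA7 replicate 1 and SCA7 replicate 2. The median log2 fold change of the 10 was -0.78, and that of all genes tested was -0.02.

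Depth did not limit these genes. Library totals lay between 56497675 and 96635832 counts, with TMM factors of 0.890 to 0.974 in WT and 1.06 to 1.09 in SCA7, and the smallest count of any of the 10 in a library was 4885. Levels are given as CPM, the counts of a gene relative to the library total after TMM scaling (counts per 1000000), and as mean ± SD over mice. The 10 genes together made up 16920 ± 203 CPM in WT (SD, n = 4) and 8357 ± 537 CPM in SCA7 (SD, n = 3). Retinas were sequenced as whole tissue, so fewer photoreceptors and less of an mRNA in each photoreceptor cannot be told apart. The tissue showed the markers of photoreceptors, with 10 rod markers adding up to between 63300 and 65114 CPM in WT libraries and between 17060 and 22135 CPM in SCA7 libraries.

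**Figure D1:**
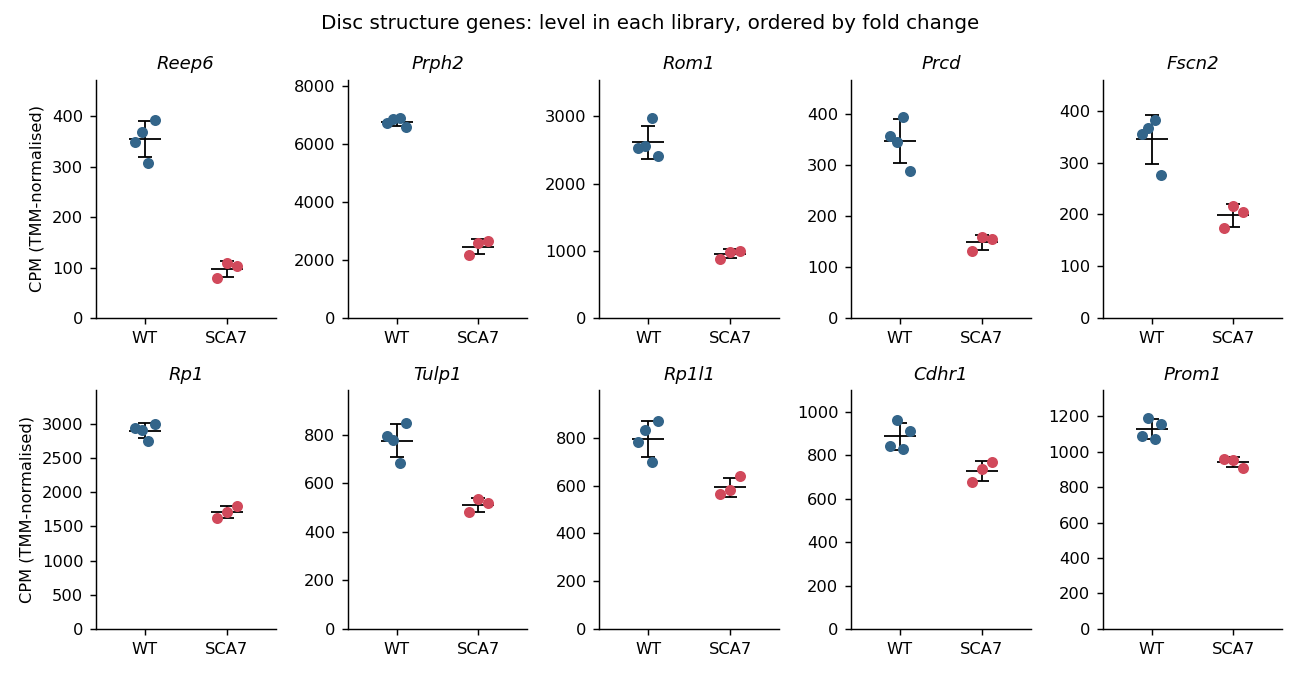
CPM after TMM scaling of the 10 disc structure genes in each library, 4 WT (blue) and 3 SCA7 (red), with the mean (horizontal line) and SD (bars); each panel has its own axis from 0. In every panel the 3 SCA7 points lie below the 4 WT points, and the mean falls by the largest share in *Reep6* (72.6%) and by the smallest in *Prom1* (16.5%).

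At the disc rim, *Prph2* (ENSMUSG00000023978, chr17:46910459-46924933, plus strand, positions in GRCm38 here and for the genes that follow) was the most abundant of the 10 genes. The WT libraries held 6729, 6863, 6902 and 6605 CPM in replicates 1 to 4, and the SCA7 libraries 2175, 2583 and 2659 CPM in replicates 1 to 3. The WT values were almost level, with an SD of 135 around a mean of 6775 CPM, and the SCA7 mean of 2472 ± 260 CPM was far outside that spread. The FC was 0.365 with a 95% interval from 0.318 to 0.419 (log2 fold change -1.45, SE 0.09, adjusted p = 4.6e-07 by edgeR). In WT retina *Prph2* ranked 8 among all genes tested by CPM.

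*Rom1* (ENSMUSG00000071648, chr19:8927391-8929356, minus strand) encodes the homologue that assembles with peripherin-2 at the rim. It stood at 2528, 2559, 2970 and 2410 CPM in WT and at 879, 988 and 998 CPM in SCA7. WT replicate 3 was the highest of its group, and no SCA7 library came near the WT range. Its mean went from 2617 ± 244 to 955 ± 66.0 CPM (SD), a decrease of 63.5%, and that of *Prph2* was likewise 63.5% (*Rom1* log2 fold change -1.45, SE 0.09, adjusted p = 5.2e-07 by edgeR).

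A ratio of both genes within a library does not depend on how libraries are scaled. Per kb of median transcript length, *Prph2* was 1.95 ± 0.14 times *Rom1* in WT and 1.94 ± 0.074 times in SCA7 (SD, n = 4 and 3). The ratio ran from 1.74 to 2.05 in WT and from 1.85 to 2.00 in SCA7, so that the SCA7 range lay within that of WT. The difference of -0.01 on the log2 scale was smaller than the spread (p = 0.943 by an exact two-sided permutation test over 35 splits, 0.943 after Benjamini-Hochberg adjustment over 3 such ratios), and with each library left out in turn it stayed between -0.06 and 0.02. These bounds are small beside the log2 fold change of -1.45 that each gene showed, which does not prove the ratio constant.

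Among the genes of disc formation, *Prom1* and *Cdhr1* were reduced least. *Prom1* (ENSMUSG00000029086, chr5:43993620-44102032, minus strand) encodes prominin-1, a pentaspan membrane protein of the evaginating discs, and *Cdhr1* (ENSMUSG00000021803, chr14:37077857-37098347, minus strand) encodes a photoreceptor cadherin that is found at the edge of nascent discs and binds prominin-1. *Prom1* reached 1087, 1190, 1073 and 1159 CPM in WT and 959, 955 and 910 CPM in SCA7. For *Cdhr1* the values were 843, 966, 828 and 913 CPM in WT and 679, 738 and 768 CPM in SCA7. In both genes the groups were separate but close. The lowest WT library exceeded the highest SCA7 library by 114 CPM in *Prom1* and by 60.0 CPM in *Cdhr1*.

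The FC of *Prom1* was 0.835 (95% interval 0.752 to 0.927, adjusted p = 0.015 by edgeR) and that of *Cdhr1* was 0.821 (0.729 to 0.923, adjusted p = 0.017). Per kb of median transcript length, the ratio of *Prom1* to *Cdhr1* was 2.13 ± 0.048 in WT and 2.17 ± 0.19 in SCA7 (SD, n = 4 and 3). The log2 difference was 0.02 (p = 0.714 by the exact permutation test, 0.943 after adjustment). With the union of exons as length the ratio was 0.768 in WT and 0.783 in SCA7. Which of the 2 genes is higher thus depends on the length, while the log2 difference between genotypes does not. An antisense gene, *Gm16401*, shares 424 exon bases with *Prom1* (5.9% of them) and had only 48 to 132 counts per library. The decrease of both rests on the scaling. When counts were divided by library totals without TMM, which moved the median log2 fold change of all genes tested by 0.19, their values were -0.07 and -0.10 and the groups overlapped (adjusted p = 0.49 and 0.39 by edgeR).

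*Prcd* and *Fscn2* were reduced more. *Prcd* (ENSMUSG00000075410, chr11:116653534-116668389, plus strand) encodes a small protein of the disc membrane, named after progressive rod-cone degeneration. It had 357, 346, 393 and 289 CPM in WT and 132, 159 and 154 CPM in SCA7. Even the lowest WT library, replicate 4, stood well above the SCA7 libraries. The mean fell by 57.1%, from 346 ± 43.3 to 149 ± 14.3 CPM (log2 fold change -1.22, SE 0.10, adjusted p = 5.9e-06 by edgeR). Of its exon bases, 201 (13.1%) are shared with *Cygb* on the opposite strand. *Cygb*, which encodes cytoglobin, did not pass the test (log2 fold change 0.06, adjusted p = 0.50), and whether reads were counted by strand is not stated.

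*Fscn2* (ENSMUSG00000025380, chr11:120361534-120368168, plus strand) encodes the retinal fascin, a protein that bundles actin. It reached 354, 366, 382 and 277 CPM in WT and 174, 216 and 205 CPM in SCA7. WT replicate 4 was apart from the other 3 WT libraries and still above every SCA7 library. The FC was 0.575 (95% interval 0.485 to 0.681, adjusted p = 3.0e-04 by edgeR), from a mean of 345 ± 46.8 to 198 ± 21.7 CPM.

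In the axoneme pair, *Rp1* (ENSMUSG00000025900, chr1:3999557-4409241, minus strand) was downregulated and *Rp1l1* (ENSMUSG00000046049, chr14:63992506-64035025, plus strand) was lower to a smaller extent. The products of both bind microtubules of the axoneme, along which the discs are stacked in order. *Rp1* had 2938, 2913, 2746 and 2995 CPM in WT and 1625, 1707 and 1800 CPM in SCA7, a decrease of 41.0% (log2 fold change -0.76, SE 0.07, adjusted p = 1.6e-05 by edgeR). *Rp1l1* had 783, 833, 697 and 869 CPM in WT and 563, 580 and 639 CPM in SCA7, a decrease of 25.3% (log2 fold change -0.42, SE 0.09, adjusted p = 0.0033). The WT libraries spread little in *Rp1* and more in *Rp1l1*, where WT replicate 3 was nearest to the SCA7 values. By library totals the groups overlapped in *Rp1l1* (log2 fold change -0.24, adjusted p = 0.076) and stayed separate in *Rp1*.

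The ratio of *Rp1* to *Rp1l1* per kb of median transcript length was 4.27 ± 0.27 in WT and 3.36 ± 0.073 in SCA7 (SD, n = 4 and 3). The groups did not overlap, with 4.02 to 4.59 in WT and 3.29 to 3.43 in SCA7, and the log2 difference was -0.34. The exact two-sided permutation test gave p = 0.0286, the smallest that 7 libraries allow, and 0.0857 after Benjamini-Hochberg adjustment over the 3 partner ratios, so that the difference did not pass the correction.

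**Figure D2:**
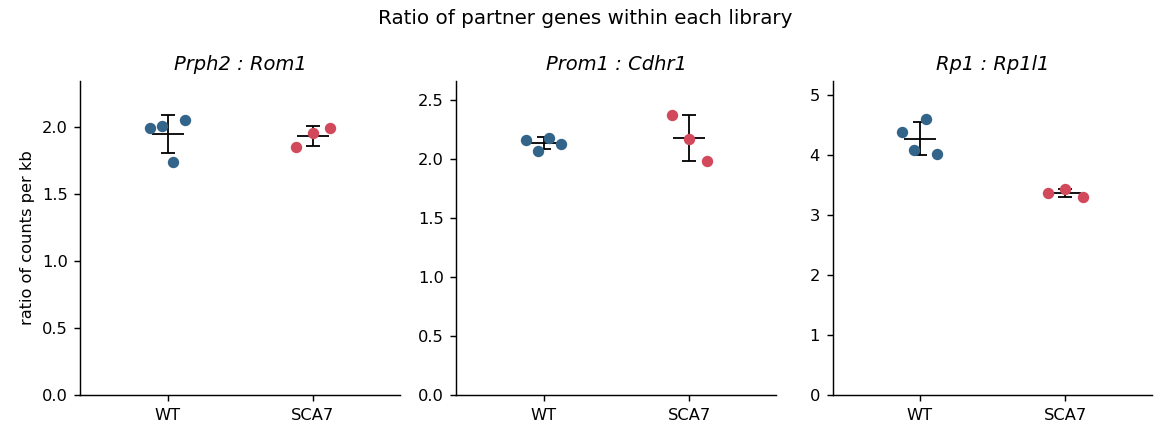
Ratio of the counts per kb of median transcript length for 3 pairs of partner genes within each library. The 4 WT (blue) and 3 SCA7 (red) libraries are shown with mean and SD, and each axis starts at 0. The ratio of *Prph2* to *Rom1* is 1.95 in WT and 1.94 in SCA7, that of *Prom1* to *Cdhr1* is 2.13 and 2.17, and the SCA7 points lie below the WT points only in the ratio of *Rp1* to *Rp1l1*.

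*Reep6* (ENSMUSG00000035504, chr10:80329953-80336441, plus strand) showed the largest decrease of the 10. Its product shapes membranes of the endoplasmic reticulum and serves the transport of proteins in rods. It stood at 348, 369, 308 and 392 CPM in WT and at 79.4, 108 and 103 CPM in SCA7. The lowest WT library was thus far above the highest SCA7 library. The FC was 0.274 (95% interval 0.230 to 0.327), with a log2 fold change of -1.87 and SE of 0.12 (adjusted p = 6.6e-07 by edgeR).

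*Tulp1* (ENSMUSG00000037446, chr17:28351515-28365222, minus strand) encodes a tubby-like protein needed for the passage of proteins to the outer segment. It had 794, 776, 683 and 848 CPM in WT and 480, 534 and 519 CPM in SCA7. The groups were separate, with WT replicate 3 closest to SCA7. The FC was 0.659 (95% interval 0.582 to 0.746, adjusted p = 2.1e-04 by edgeR), an interval that extends beyond the limit of 0.7. By library totals the log2 fold change of *Tulp1* was -0.42 in place of -0.60 and the gene was no longer downregulated, which left 6 of the 10 downregulated and 0 upregulated, against 4.86% and 18.3% of all genes tested under that scaling.

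**Figure D3:**
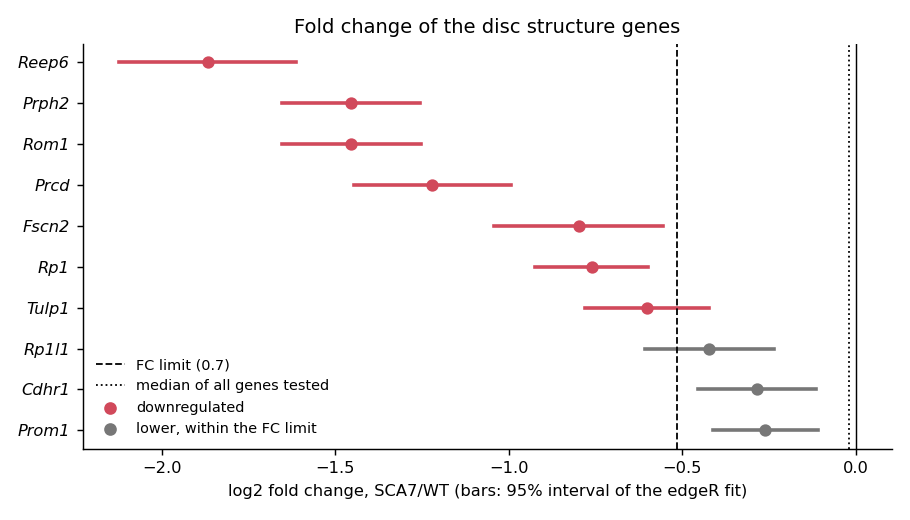
Log2 fold change (SCA7/WT) of the 10 genes with the 95% interval of the edgeR fit, in the order of the change. The 7 downregulated genes (red) run from -1.87 to -0.60, the 3 others (grey) from -0.42 to -0.26; the dashed line is the FC limit of 0.7 and the dotted line the median of all genes tested, -0.02.

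Since all 10 genes are measured in the same library, their make-up can be compared without scaling between libraries. Set against *Prph2* in the same library, *Prom1* was 2.30 times higher in SCA7 than in WT, *Cdhr1* 2.26 times, *Rp1l1* 2.06 times, *Tulp1* 1.82 times, *Rp1* 1.62 times and *Fscn2* 1.59 times. For each of these 6 ratios the exact permutation test gave p = 0.0286, and 0.0429 after Benjamini-Hochberg adjustment over 9 ratios. *Prcd* (1.18 times) and *Reep6* (0.749 times) did not pass the adjustment (p = 0.0643 each by the adjusted exact permutation test), although the groups were separate. *Rom1* was at 1.01 times (p = 0.943 by the exact permutation test, 0.943 after adjustment). These 9 ratios were chosen after the values had been seen.

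Levels of different genes were compared per length, as RPK, that is, counts scaled by size factors of DESeq2 for each kb of the median transcript. In WT retina the mean RPK was 231011 for *Prph2* and 119060 for *Rom1*, followed by 55440 for *Rp1* and 44159 for *Tulp1*. *Fscn2* (35586), *Prom1* (30129) and *Prcd* (29910) came next, and *Cdhr1* (14145), *Rp1l1* (13056) and *Reep6* (11492) were lowest. The ranges of neighbours overlapped between *Tulp1* and *Fscn2*, *Fscn2* and *Prom1*, *Prom1* and *Prcd*, *Cdhr1* and *Rp1l1*, and *Rp1l1* and *Reep6*, so that the order within these pairs is not resolved. With this length *Prph2*, *Rom1* and *Rp1* were each separate from the next gene.

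In SCA7 retina, with the same length, the order by RPK was nearly kept, with *Prph2* at 85050 and *Rom1* at 43847, but *Prom1* (25374) stood above *Fscn2* (20632), and *Reep6* was at 3174. Of the RPK summed over the 10 genes, *Prph2* took 39.6% ± 0.19 in WT and 30.9% ± 1.12 in SCA7 (SD), and *Prom1* 5.16% ± 0.32 and 9.27% ± 0.88. *Rom1* took 20.4% ± 1.48 and 15.9% ± 0.033. The RPK of genes with many transcripts depend on the length used. With the union of exons as length, *Rp1* in WT was at 16250, *Tulp1* at 8031 and *Fscn2* at 11283, whereas *Prph2* and *Rom1* stayed the highest. The ranges of *Rp1* and the next gene, *Prcd*, then overlapped in WT, and the order below *Rom1* was not kept between the genotypes, with *Cdhr1* moving from rank 5 in WT to 3 in SCA7 and *Prcd* from 4 to 6. The shares depend on it as well. With the union of exons *Rom1* took 32.3% in WT and 27.7% in SCA7, *Prom1* 2.95% and 5.79%, and *Prph2* 42.4% and 36.1%, so that these 3 shares kept the direction of their change. The share of *Prcd* did not, at 5.11% in WT and 4.70% in SCA7 with the median length and 4.23% and 4.25% with the union of exons.

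**Figure D4:**
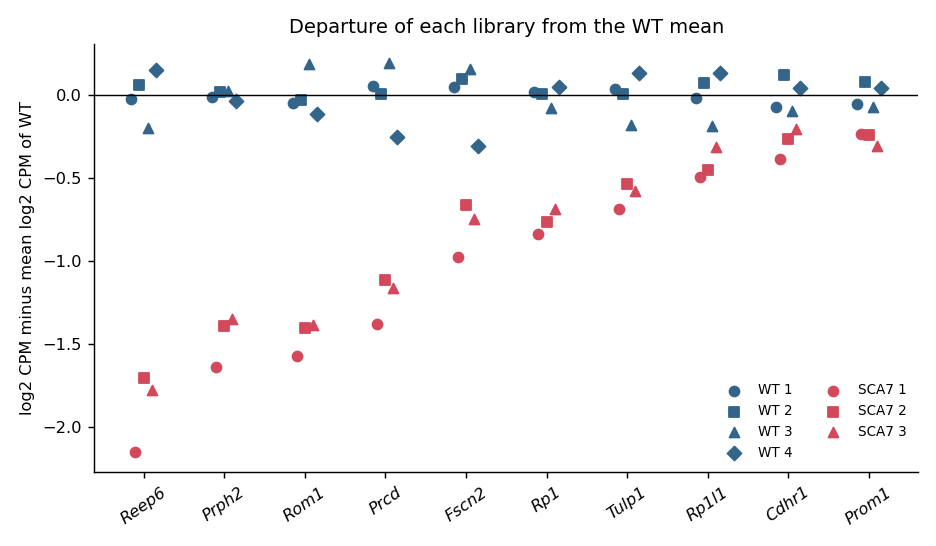
Departure of each gene from its mean log2 CPM in WT, for each of the 4 WT (blue) and 3 SCA7 (red) libraries, in the order of the fold change. The SCA7 libraries lie below 0 for all 10 genes, SCA7 replicate 1 is the lowest for 9 of them, and WT replicates 3 and 4 lie on opposite sides of 0 in each gene.

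The libraries also differed within their groups, and the 10 genes did so unequally. In log2 CPM the 4 WT libraries spanned 0.06 for *Prph2*, the narrowest range, and 0.47 for *Fscn2*, the widest. WT replicate 3 was above the WT mean and replicate 4 below it for *Prph2*, *Rom1*, *Fscn2* and *Prcd*, and the reverse held for the other 6 genes. *Fscn2* stood at 0.16 in replicate 3 and -0.31 in replicate 4 relative to the WT mean, *Reep6* at -0.20 and 0.15. WT replicate 3 also had the smallest TMM factor, 0.890, and the lowest summed level of 10 pigment epithelium markers in WT, 126 CPM against at most 254 CPM; their part in these departures was not tested. In SCA7, replicate 1 had the lowest level of 9 of the 10 genes and the lowest rod marker sum, and *Prom1* was lowest in replicate 3.

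The genes whose pattern over the 7 libraries was most like that of *Prph2* were ranked by the root mean square difference of log2 CPM, centred on the WT mean, among 1927 protein-coding genes whose mean reached 100 CPM. *Rom1* was the nearest, at 0.077. Of the genes outside the group, *Lbhd1* (0.077), *Uckl1* (0.081), *Gnb1* (0.092), *Stk35* (0.094) and *Nxnl1* (0.097) followed. *Gnb1* encodes the beta subunit of rod transducin and *Nxnl1* the rod-derived cone viability factor. *Lbhd1* lies on chromosome 19 as *Rom1* does, 34.8 kb away. Among the other disc structure genes, *Prcd* had rank 21, *Reep6* 40, *Fscn2* 77, *Rp1* 84, *Tulp1* 126, *Rp1l1* 218, *Cdhr1* 323 and *Prom1* 353. Centring on the WT mean keeps the difference between genotypes, so these ranks largely restate the fold changes.

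The genes that work alongside the 10 were described by counts and medians, with no test between lists, and their counts stand beside 7.91% of all genes tested downregulated and 7.47% upregulated. Of 12 genes listed as disc membrane partners, most of which encode proteins of the outer segment membranes, 8 were downregulated and none upregulated, with a median log2 fold change of -0.66. *Rdh12*, a retinol dehydrogenase known from the inner segment and thus not itself a disc protein, went from 459 ± 33.8 to 198 ± 27.0 CPM (log2 fold change -1.21, adjusted p = 3.0e-06 by edgeR). Of 13 genes of actin-driven disc formation and of calyceal processes none was downregulated and the median was 0.03. The one upregulated gene among them was *Arpc1b*, an Arp2/3 subunit, from 4.43 ± 0.52 to 8.05 ± 0.92 CPM (log2 fold change 0.86, adjusted p = 1.8e-04). Within the FC limit, 5 more of these 13 differed with an adjusted p under 0.05, 2 of them lower and 3 higher in SCA7. The 2 lower were *Pcare* (log2 fold change -0.37, adjusted p = 0.034 by edgeR) and *Pcdh15* (-0.28, adjusted p = 0.019 by edgeR). The 3 higher were all Arp2/3 subunits, which make up most of this list and so weigh most on its median.

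Of 11 axoneme partners, 2 were downregulated and none upregulated, with a median log2 fold change of -0.13, a count too small to set against the share of all genes. They were *Fam161a*, a microtubule-binding ciliary protein (159 ± 15.4 to 104 ± 6.86 CPM, log2 fold change -0.61, adjusted p = 1.9e-04 by edgeR), and *Rpgrip1*, a scaffold of the connecting cilium (289 ± 33.4 to 200 ± 11.4 CPM, -0.53, adjusted p = 8.6e-04). The decrease of *Rp1* was -0.76. Either call was near the limit, and leaving out WT replicate 1, WT replicate 4 or SCA7 replicate 1 left 1 of the 11 downregulated.

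Relatives of the 10 by family, such as other prominins, fascins, tubby-like, doublecortin-domain and REEP genes, were also followed. Of 22 listed, 16 passed the expression filter, and 1 was downregulated and 3 were upregulated, with a median of 0.06, and the single downregulated gene of 16 is close to the share over all genes. *Dcdc2a*, a doublecortin-domain gene, fell from 8.72 ± 1.01 to 5.97 ± 0.40 CPM (log2 fold change -0.55, adjusted p = 0.0021 by edgeR). *Reep4*, a relative of *Reep6*, rose from 2.60 ± 0.21 to 4.31 ± 0.31 CPM (0.73, adjusted p = 5.5e-04), and *Dclk3* from 1.74 ± 0.0085 to 2.33 ± 0.29 CPM (0.42, adjusted p = 0.030). *Tulp3*, a relative of *Tulp1* named here because it was the remaining upregulated gene, had a log2 fold change of 0.41 (adjusted p = 0.0037). The number downregulated was 0 without WT replicate 2 or SCA7 replicate 1, and 2 without WT replicate 3. Leaving out any library left 2 of the 3 upregulated. *Dclk3* was lost without WT replicate 1, 2 or 4 or SCA7 replicate 1 or 3, and *Tulp3* without WT replicate 3 or SCA7 replicate 2.

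Of 15 photoreceptor genes with products outside the outer segment, 9 were downregulated and 2 upregulated, with a median log2 fold change of -0.78. *Nrl*, the rod transcription factor, went from 2326 ± 120 to 776 ± 104 CPM (log2 fold change -1.58, adjusted p = 4.6e-07 by edgeR), and *Nxnl1* from 307 ± 24.7 to 114 ± 16.2 CPM (-1.43, adjusted p = 1.3e-06). *Samd7*, a repressor in photoreceptors, rose from 120 ± 27.7 to 195 ± 21.7 CPM (0.71, adjusted p = 0.018), and *Impg2*, a proteoglycan of the matrix around photoreceptors, from 635 ± 28.1 to 830 ± 29.4 CPM (0.39, adjusted p = 0.0010). None of the 2 was upregulated without WT replicate 3, and 1 was without WT replicate 4, SCA7 replicate 1 or SCA7 replicate 3. No test set this list against the disc structure genes.

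**Figure D5:**
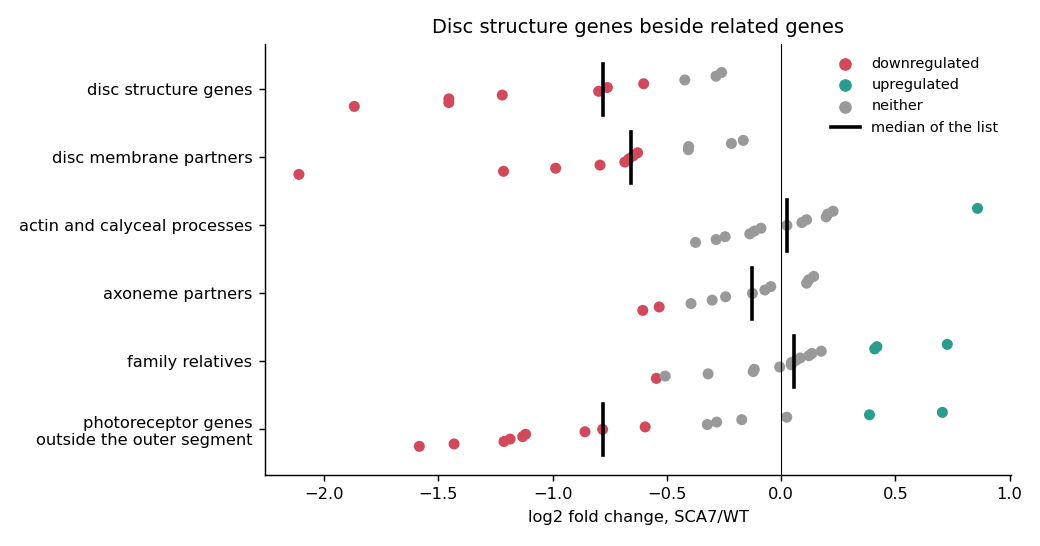
Log2 fold change (SCA7/WT) of the 10 disc structure genes and of 5 related lists, with each point a gene tested (red downregulated, green upregulated, grey neither) and a black line at the median of the list. The medians are -0.78 for the disc structure genes, -0.66 for disc membrane partners, 0.03 for actin and calyceal process genes, -0.13 for axoneme partners, 0.06 for family relatives and -0.78 for photoreceptor genes outside the outer segment.

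Markers of other cells moved between the genotypes beside these genes. Of 10 rod markers all were downregulated (median log2 fold change -1.14), and of 10 cone markers 9 were downregulated and 1, *Gnb3*, upregulated (median -1.57, summed level 1705 to 2008 CPM in WT and 808 to 856 CPM in SCA7). Bipolar markers had a median of -0.30 with 3 of 10 downregulated (1136 to 1344 and 1019 to 1076 CPM), and Müller glia markers 0.31 with 2 of 10 upregulated (4679 to 5598 and 4733 to 5001 CPM). Reactive glia markers rose in 8 of 10 (median 2.31, 299 to 329 and 791 to 928 CPM) and microglia markers in 10 of 10 (median 1.22, 46.6 to 58.6 and 113 to 129 CPM). Pigment epithelium markers were downregulated in 4 of 10 (median -0.72, 126 to 254 and 30.0 to 71.5 CPM), and none of these lists had a marker below the expression filter. The part of these shifts in the decrease of the disc structure genes was not tested. Without WT replicate 4, 4 Müller glia markers were upregulated in place of 2, without SCA7 replicate 2, 2 pigment epithelium markers were downregulated in place of 4, and without SCA7 replicate 3, 1 of the latter was upregulated.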

How the data were processed

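Total RNA depleted of ribosomal RNA was sequenced as stranded single-read libraries, 4 WT and 3 SCA7. The authors mapped reads to mm10 and counted them per Ensembl gene, and the submitters' processing notes name TopHat2 2.0.14, Bowtie2 2.1.0 and HTSeq 0.6.1. The deposited table holds raw counts of 52550 genes, without normalization; the HTSeq strand option is not given in the sources used here. Sex is not labelled.

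Groups were taken from the sample titles. Genes were kept by filterByExpr of edgeR, libraries were scaled by TMM, and genotypes were compared by its quasi-likelihood test (robust fit, no covariates), with p-values of all 20128 genes tested adjusted after Benjamini and Hochberg. Downregulated genes had an adjusted p under 0.05 and FC under 0.7, and upregulated genes FC above 1.3. Library totals were 56497675 to 96635832 counts, and the precision given is the SD over mice or the SE of the fit. Single ratios were compared by exact two-sided permutation tests over 35 splits, with a smallest p of 0.0286. Transcript lengths and positions came from a GENCODE annotation of GRCm38 and promoters from RefSeq GRCm38.p6.

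The 10 genes and all lists were chosen with earlier results of these data known. All 10 genes are named, with the 2 largest decreases and increases among called genes of at least 1 CPM in each related list. Also named are the 5 genes most like *Prph2* at a mean of 100 CPM or more, and the neighbours that share exon bases with any of the 10. *Tulp3*, *Pcare* and *Pcdh15* were named beyond this rule. For 1 further gene that the rule names no value is given here, and the cell type marker lists are given by counts, medians and sums, with no values for their examples except *Nrl*, which is also in another list. TAATC, library totals without TMM and the ratios to *Prph2* were added after seeing the data.

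Tried as alternatives were the DESeq2 Wald test, its size factors in edgeR, limma-voom, no filter beyond 1 count, a minimum of 10 counts per library, the replicate number as a block, an adjusted p under 0.01, no FC limit, each library left out, and, for RPK, TMM factors and the union of exons. Only the fits of edgeR (with and without the block), DESeq2 and limma-voom were tested on simulated counts. The ratios, RPK, promoter matches and likeness to *Prph2* were not. R 4.3.3, edgeR 4.0.16, limma 3.58.1, DESeq2 1.42.0 and Python 3.11.15 were used.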

Additional observations from a re-analysis of the deposited data

How the results depend on the processing

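The number of disc structure genes downregulated was 7 under DESeq2 size factors, the DESeq2 Wald test, limma-voom, both other filters, an adjusted p under 0.01, the replicate number as a block and each library left out, 10 without an FC limit, and 6 by library totals. Without the limit *Prom1* (-0.26), *Cdhr1* (-0.29) and *Rp1l1* (-0.42) joined, but with a library left out as well the number was 8 to 10, since *Prom1* and *Cdhr1* each had an adjusted p over 0.05 in 3 of 7 such fits, and by library totals *Tulp1* was lost at -0.42. Library totals also changed the balance of all calls, from 51.4% lower (1592 down, 1504 up) to 21.0% lower (978 down, 3681 up). With a library left out, the log2 fold change of *Prph2* lay between -1.51 and -1.37 and that of *Reep6* between -1.95 and -1.74.

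With the replicate number as a block, *Prph2* was at -1.47 and *Prom1* at -0.25, and no call of the 10 genes changed. No SCA7 library shares the number of WT replicate 4, which therefore added nothing to the genotype difference in that fit. The values were close to those without WT replicate 4, where *Prph2* was at -1.47 and *Prom1* at -0.25. The same-numbered libraries correlated at 0.005, 0.204 and 0.089 in their deviations from the group means, and not every library correlated best with its own number. The titles also carry a further number, which is close between same-numbered libraries of both genotypes and far from the rest for WT replicate 4. They do not say what it stands for and name no shared litter or day. Whether the replicate numbers pair the mice is therefore not settled.

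RPK in WT depended on the length. With the union of exons it was 155790 for *Prph2*, 10846 for *Prom1*, 16250 for *Rp1*, 7253 for *Rp1l1*, 8031 for *Tulp1*, 11283 for *Fscn2*, 9754 for *Reep6* and 15579 for *Prcd*, and the shares in the summed RPK were 42.4% in WT and 36.1% in SCA7 for *Prph2*, 32.3% and 27.7% for *Rom1*, and 2.95% and 5.79% for *Prom1*.

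With a library left out, the log2 difference between genotypes in the ratio of *Prph2* to *Rom1* lay between -0.061 and 0.023, being above 0 without WT replicate 1, WT replicate 2, WT replicate 4 or SCA7 replicate 1. That of *Prom1* to *Cdhr1* lay between -0.039 (without SCA7 replicate 1) and 0.089. That of *Rp1* to *Rp1l1* lay between -0.37 and -0.31 and did not pass, where 6 libraries cannot give an exact p below 0.0667. The level of each ratio, but not its log2 difference, depended on the length. With the union of exons *Prph2* to *Rom1* was 1.31 in WT and 1.31 in SCA7. *Prom1* to *Cdhr1* was then 0.768 and 0.783, and *Rp1* to *Rp1l1* 2.25 and 1.77.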
